A study of Mus musculus with 6 samples.

Results

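Glycolysis and hypoxia-responsive genes are described here as a set of 38 genes chosen by symbol, of 22322 genes in the deposited table. The set holds 15 glycolytic enzymes and regulators, 4 glucose and lactate transporters, 3 enzymes acting on pyruvate and lactate, 6 subunits and oxygen sensors of the hypoxia-inducible factor (HIF) system and 10 genes known to respond to low oxygen. All 38 symbols were found in the table, and 37 passed the filter on low counts and were tested. The cells were neural stem progenitor cells of mouse, labelled WT for genotype, a kind of cell that divides in culture and can form neurons and glia. One group of 3 libraries received PTN, a name in common use for the secreted growth factor pleiotrophin that the labels do not spell out, and the Control group of 3 libraries received PBS. RNA of both groups was taken at 24 h. The series title speaks of conditioned medium with added PTN. The labels state no dose and do not say whether replicates were separate cultures or animals. The p-values therefore cover the spread among these 6 libraries, which could be technical.

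Glycolysis splits glucose into pyruvate in the cytosol and yields ATP and NADH without using oxygen, and lactate dehydrogenase then turns pyruvate into lactate. HIF is a dimer of an oxygen-labile alpha subunit (HIF-1 alpha from Hif1a or HIF-2 alpha from Epas1) and a stable beta subunit from Arnt. Prolyl hydroxylases mark the alpha subunit for destruction by the VHL ubiquitin ligase when oxygen is present, so HIF activity is set mostly at the protein level. In low oxygen HIF binds short hypoxia response elements, raises most genes of glycolysis and turns on survival and vessel-forming genes such as Vegfa. In the brain, neural progenitors and astrocytes are known for strong glycolysis, whereas Slc2a3 and Eno2 encode the glucose transporter and the enolase typical of neurons.

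Totals lay between 19267764 and 25975205 counts per library in PTN cells and between 21268297 and 26341745 in Control cells, and CPM below are counts brought to a common library size with TMM factors. All 10 neural stem and progenitor markers examined, among them Nes, Sox2 and Pax6, were counted in every library. Transcripts of mitochondrial DNA took 3.97% of counts in PTN 3 and 8.12% and 8.1% in PTN 1 and PTN 2, against 4.47% to 7.47% in the Control libraries. PTN 3 also lay nearest to Control in most glycolytic enzymes, as given below, and results that rest on it are shown with and without it.

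After PTN, 4 genes of glycolysis and lactate formation fell, and 2 isoforms typical of neurons rose. Pkm, Pfkl, Gapdh and Ldha fell and were 1.71-fold to 1.8-fold lower, and Slc2a3 and Eno2 rose 1.64-fold and 1.66-fold (n = 3 each). Car9, which encodes a membrane carbonic anhydrase classically induced by HIF, was 4.33-fold lower at under 4 CPM in every library. None of the 6 HIF subunits and oxygen sensors of the set passed the test. Outside the set, the further HIF subunit genes Hif3a and Arnt2 did, as given below. With the threshold set at a Benjamini-Hochberg adjusted p of 0.05 in edgeR's quasi-likelihood fit of all genes, 5 members fell and 2 rose, or 13.5% and 5.41% of the 37 tested. Of all 13161 tested genes 3.06% fell and 4.93% rose, so the share of members that rose was close to the background and the share that fell was above it. The median log2 fold change was -0.30 over the tested members and 0.030 over all tested genes. In bulk RNA, fewer cells of a type and less RNA per cell cannot be told apart.

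**Figure D1:**
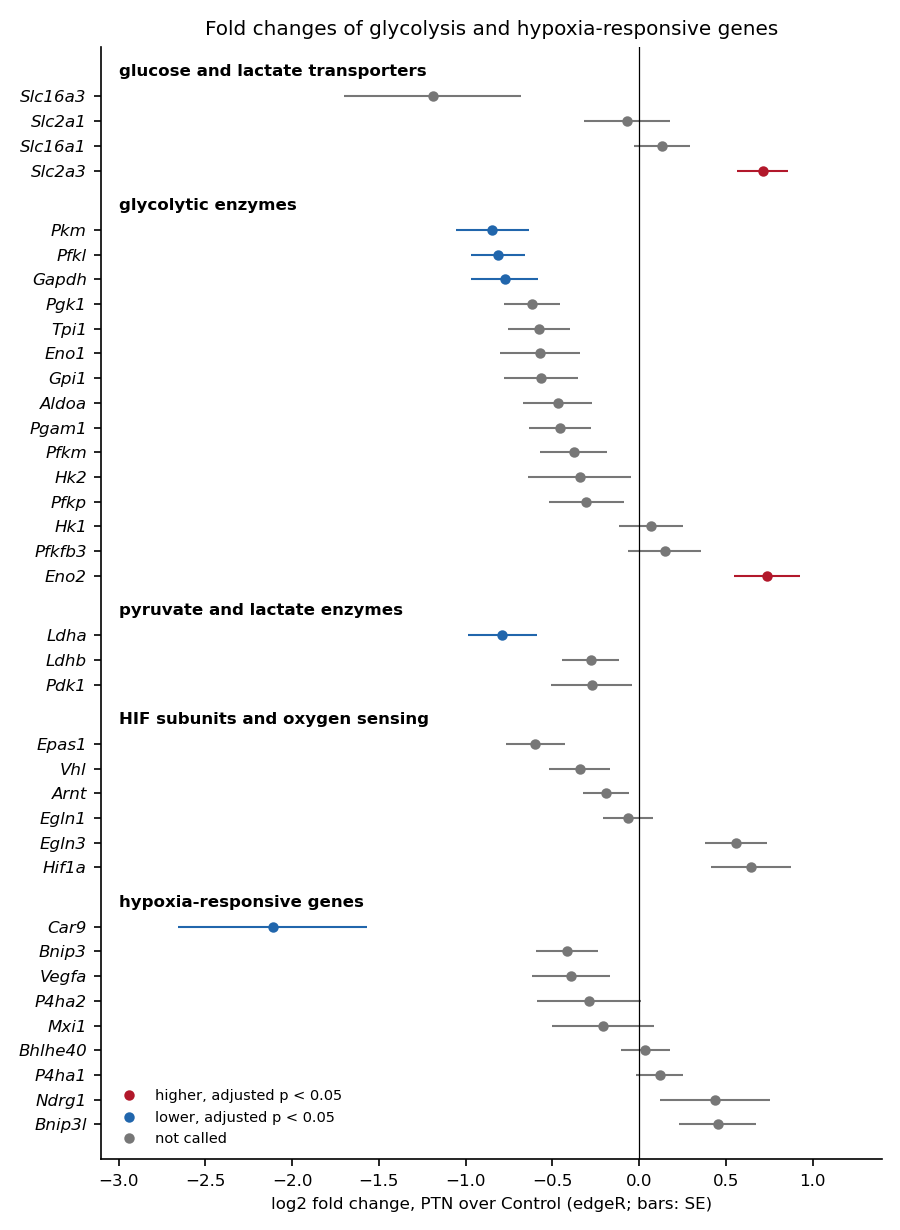
The horizontal axis gives the log2 fold change of each tested gene, PTN over Control, from edgeR, with bars for the standard error, and genes are grouped by role. Blue marks the 5 genes called lower, red the 2 called higher and grey the 30 not called. The glycolytic enzymes lie mostly left of 0, with Eno2 as the one called to the right.

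The promoters of the called genes are shown because many genes of this set are known HIF targets, and a hypoxia response element has the core ACGTG or GCGTG. Promoter windows of 300 bases, from 250 bases before to 50 bases after a start site, were matched by symbol to RefSeq (GRCm38.p6) for 33 of the 38 members, in 48 windows. The cores were searched on both strands, and capitals mark every match. Where a gene has several start sites, the most upstream window is printed. The windows are those of 6 called members, in order of p. Slc2a3, the remaining called member, had no window matched by symbol.
Pfkl (chr10:78009758-78010057, strand -): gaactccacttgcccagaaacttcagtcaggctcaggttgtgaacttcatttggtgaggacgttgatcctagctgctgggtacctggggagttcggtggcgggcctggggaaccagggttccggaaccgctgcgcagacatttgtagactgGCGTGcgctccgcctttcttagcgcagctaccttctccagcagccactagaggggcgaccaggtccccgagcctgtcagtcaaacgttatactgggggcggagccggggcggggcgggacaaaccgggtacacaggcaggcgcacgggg
Pkm (chr9:59656326-59656625, strand +): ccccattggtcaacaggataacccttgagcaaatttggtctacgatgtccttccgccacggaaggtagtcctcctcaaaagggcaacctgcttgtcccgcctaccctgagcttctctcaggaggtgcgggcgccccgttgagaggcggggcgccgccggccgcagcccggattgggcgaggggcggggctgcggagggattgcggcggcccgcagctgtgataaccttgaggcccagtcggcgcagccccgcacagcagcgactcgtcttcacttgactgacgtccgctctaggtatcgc
Gapdh (chr6:125165724-125166023, strand -): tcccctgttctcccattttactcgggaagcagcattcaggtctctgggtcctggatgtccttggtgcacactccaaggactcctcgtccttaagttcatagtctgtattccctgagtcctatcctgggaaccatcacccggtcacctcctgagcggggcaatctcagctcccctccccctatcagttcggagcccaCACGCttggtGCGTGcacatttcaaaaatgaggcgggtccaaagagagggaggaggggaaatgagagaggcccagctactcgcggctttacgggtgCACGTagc
Ldha (chr7:46845554-46845853, strand +): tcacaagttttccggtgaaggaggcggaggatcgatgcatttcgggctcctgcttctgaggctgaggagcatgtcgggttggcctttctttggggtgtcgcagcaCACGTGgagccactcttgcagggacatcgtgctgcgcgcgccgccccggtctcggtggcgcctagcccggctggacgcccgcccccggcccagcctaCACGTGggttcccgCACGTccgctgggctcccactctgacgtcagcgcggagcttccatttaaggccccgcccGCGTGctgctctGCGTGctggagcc
Car9 (chr4:43506776-43507075, strand +): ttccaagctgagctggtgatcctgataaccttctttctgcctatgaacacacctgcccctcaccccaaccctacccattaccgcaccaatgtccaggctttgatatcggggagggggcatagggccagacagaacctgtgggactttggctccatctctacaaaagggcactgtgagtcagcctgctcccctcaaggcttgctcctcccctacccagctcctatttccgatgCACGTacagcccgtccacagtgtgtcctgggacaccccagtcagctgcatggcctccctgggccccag
Eno2 (chr6:124769624-124769923, strand -): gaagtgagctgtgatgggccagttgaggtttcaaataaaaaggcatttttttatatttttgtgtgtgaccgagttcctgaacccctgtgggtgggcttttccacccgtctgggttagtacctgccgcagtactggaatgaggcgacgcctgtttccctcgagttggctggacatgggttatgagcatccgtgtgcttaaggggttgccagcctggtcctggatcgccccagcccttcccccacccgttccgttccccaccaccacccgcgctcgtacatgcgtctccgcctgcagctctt
The Ldha window holds 5 separate matches, of which 2 are the palindrome CACGTG, which contains ACGTG on both strands and is also the E-box core. The Gapdh window holds 3, and those of Pfkl and Car9 hold 1 each. The printed windows of Pkm and Eno2 hold none, although the second Pkm start site has 2. At least 1 core was present in 37 of the 48 member windows (77.1%) and in 43.8% of all 32851 windows in the table. By core, ACGTG was present in 56.2% of member windows and 19.6% of all windows, and GCGTG in 50% and 32.4%. These letters describe the windows and say nothing of binding, and the members were named in part as HIF targets. Windows of genes that were not called, such as Slc16a1 and P4ha2 with 4 matches each, hold cores as well.

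Most of the glycolytic enzyme genes had lower mean levels in PTN cells, and a minority passed the test. Of the 15, 3 fell, 1 rose and 11 were not called, and the log2 fold change was negative in 12, with a median of -0.47. In 10 of them (66.7%) all 3 PTN values lay below all 3 Control values, which held for 16 of the 37 tested members (43.2%) and for 17.1% of all tested genes. Without PTN 3 the number called lower was 9, whereas it was 1, 1, 0, 1 and 0 without PTN 1, PTN 2, Control 1, Control 2 and Control 3, and the median ranged from -0.67 to -0.39 over these refits. The number called over all genes also differed widely between these refits, as given in the last section. Without PTN 3, the genes called lower went from 0 to 3 in the citric acid cycle and from 2 to 4 in the pentose phosphate pathway. They went from 1 to 0 in the hypoxia-responsive members. The 9 enzymes called lower without PTN 3 are therefore not particular to glycolysis. A refit without 1 library has fewer degrees of freedom, so a call lost in it does not by itself point to that library.

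The enzymes ranked the libraries much alike. PTN 2 was the lowest of the 6 libraries for 12 of the 15 enzymes, and PTN 3 was the highest of the PTN libraries for 14. Among the Control libraries, Control 1 was the highest for 12. Summed over the 15 enzymes, RNA reached 8445, 7326 and 11313 CPM in PTN libraries 1 to 3, against 15470, 12843 and 13035 CPM in Control libraries 1 to 3. The sums of the groups did not overlap, and PTN 3 stood closer to Control 2 than to PTN 1. The 8 astrocyte markers examined summed to 4581, 7727 and 5235 CPM in PTN libraries 1 to 3, against 8710, 8966 and 8848 CPM in Control libraries 1 to 3, also without overlap. Gfap carried that gap: the other 7 markers summed to 4239, 6043 and 4822 CPM in PTN libraries 1 to 3, against 4971, 5354 and 5249 CPM in Control libraries 1 to 3, which overlap (a sum chosen after the values were seen). PTN 2 had the highest astrocyte marker sum of the PTN libraries and the lowest enzyme sum. The part of the astrocyte markers and of the mitochondrial share in these results was not tested.

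**Figure D2:**
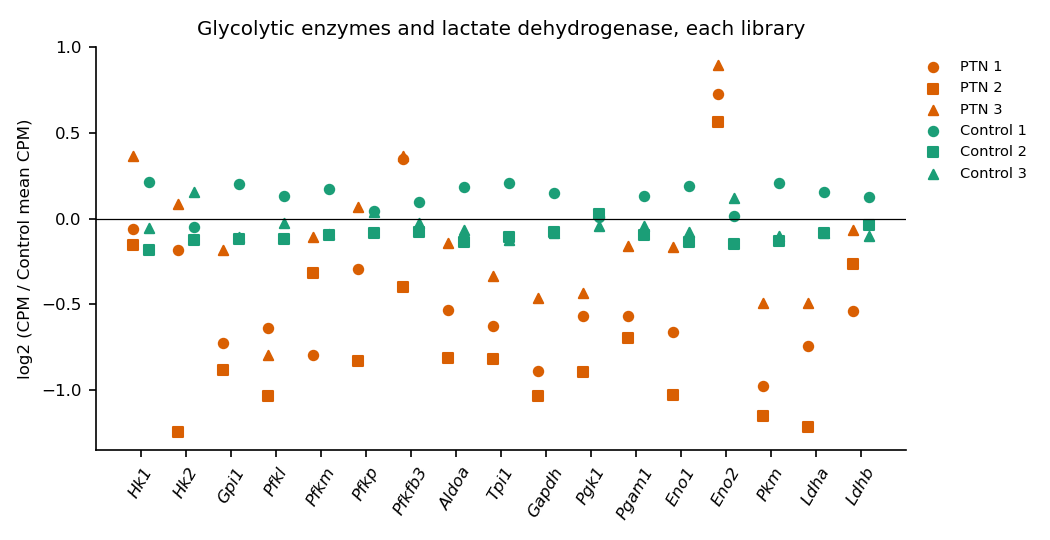
Each point is 1 library, and the vertical axis gives its CPM over the mean of the Control libraries on a log2 scale, for the glycolytic enzymes in pathway order and both lactate dehydrogenase genes. PTN libraries stand left of Control libraries for each gene. From Aldoa to Eno1 all PTN points lie below all Control points, with PTN 3 (triangles) nearest to Control, while the PTN points of Eno2 lie above.

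Neither hexokinase gene, at the entry into glycolysis, was called. Hk1, the hexokinase of brain that traps glucose as glucose 6-phosphate, averaged 325 ± 65.2 CPM in PTN cells and 310 ± 44.3 CPM in Control cells (SD, n = 3 each) and was not called (log2 fold change 0.07 with an SE of 0.19, edgeR adjusted p = 0.818). Errors of log2 fold changes are SE throughout. Hk2, the inducible hexokinase and a known HIF target, stood at 29.5, 14.1 and 35.5 CPM in PTN libraries 1 to 3, against 32.3, 30.7 and 37.3 CPM in Control libraries 1 to 3. Only PTN 2 stood apart for Hk2, the groups overlapped, and the gene was not called (log2 fold change -0.34 ± 0.30, edgeR adjusted p = 0.459). Gpi1, glucose phosphate isomerase, averaged 1044 ± 278 CPM in PTN cells and 1544 ± 203 CPM in Control cells. Its values did not overlap but it was not called (edgeR adjusted p = 0.137; 0.0224 without PTN 3).

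Phosphofructokinase commits sugar to glycolysis, and its liver-type subunit gene Pfkl fell. Pfkl reached 63.7, 48.4 and 57.2 CPM in PTN libraries 1 to 3, against 108.5, 91.2 and 97.3 CPM in Control libraries 1 to 3. Every PTN library was well below every Control library, and PTN 3 did not stand apart from the other PTN libraries here. The log2 fold change was -0.81 ± 0.16 (edgeR adjusted p = 0.0179, 0.0567 without Control 1 and 0.0692 without Control 3). The muscle-type Pfkm and the platelet-type Pfkp averaged 320 ± 73.9 and 116 ± 34.7 CPM in PTN cells, against 415 ± 45.7 and 143 ± 7.16 CPM in Control cells, and neither was called (edgeR adjusted p = 0.242 and 0.372). Pfkfb3 averaged 196 ± 53.5 CPM in PTN cells and 177 ± 11.1 CPM in Control cells (edgeR adjusted p = 0.661). Its product makes an isomer of fructose bisphosphate that activates phosphofructokinase and is not the isomer that aldolase splits.

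In the middle of the pathway, Aldoa, which encodes the aldolase that splits fructose bisphosphate, had 672, 554 and 882 CPM in PTN libraries 1 to 3, against 1104, 886 and 930 CPM in Control libraries 1 to 3. PTN 3 and Control 2 nearly met, and Aldoa was not called (log2 fold change -0.47 ± 0.20, edgeR adjusted p = 0.172; 0.0384 without PTN 3). Tpi1, triose phosphate isomerase, was at 468 ± 80.5 CPM in PTN cells and 699 ± 93.1 CPM in Control cells (edgeR adjusted p = 0.0827; 0.0302 without PTN 3 and 0.0257 by DESeq2).

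Gapdh, the dehydrogenase that couples triose oxidation to NADH, was the most abundant member per length. It stood at 1297, 1174 and 1783 FPKM in PTN libraries 1 to 3, against 2672, 2301 and 2320 FPKM in Control libraries 1 to 3. All PTN values were lower than all Control values. On the scale of the test Gapdh had 1963 ± 421 CPM in PTN cells and 3358 ± 318 CPM in Control cells (SD, n = 3 each), and its log2 fold change was -0.77 ± 0.19 (edgeR adjusted p = 0.0443). The call held without PTN 3 (0.0108) and not without any 1 other library (0.0764 to 0.129) or with the length trend removed (0.0547). Its deposited counts were fractional in all 6 libraries, as were those of Eno1 and Pfkp, so reads shared with near-identical copies could have been split among genes.

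Pgk1, phosphoglycerate kinase, whose step yields ATP, had 647, 515 and 708 CPM in PTN libraries 1 to 3, against 965, 977 and 930 CPM in Control libraries 1 to 3. The Control values were tight and lay above all PTN values, but Pgk1 just missed the threshold (log2 fold change -0.62 ± 0.16, edgeR adjusted p = 0.0522). It passed in 6 of 15 other settings, with adjusted p between 0.00513 and 0.14. Pgam1 and Eno1, which rearrange and dehydrate phosphoglycerate, were not called (log2 fold change -0.46 and -0.57, edgeR adjusted p = 0.146 and 0.157), and without PTN 3 their adjusted p was 0.0333 and 0.0249.

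Pkm, pyruvate kinase, performs the last step and had the most negative log2 fold change of the 15 enzymes, though within 1 SE of that of Pfkl. Its values were 1184, 1047 and 1656 CPM in PTN libraries 1 to 3, against 2687, 2128 and 2172 CPM in Control libraries 1 to 3. All PTN values were below all Control values, and PTN 3 was again the nearest to Control. The log2 fold change was -0.85 ± 0.21 (edgeR adjusted p = 0.0432, 0.00932 without PTN 3 and 0.0805 to 0.129 without any 1 other library). The table counts genes, so the splice forms PKM1 and PKM2 are not separated.

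Ldha, the lactate dehydrogenase subunit that favours lactate formation, had 526, 378 and 625 CPM in PTN libraries 1 to 3, against 978, 831 and 832 CPM in Control libraries 1 to 3. The groups were well apart, with PTN 2 lowest. Ldha fell with a log2 fold change of -0.79 ± 0.20 (edgeR adjusted p = 0.0482, 0.0165 without PTN 3, 0.0648 to 0.135 without any 1 other library and 0.0593 with the length trend removed). Ldhb, the subunit that favours lactate use, averaged 323 ± 52.3 CPM in PTN cells and 391 ± 32.7 CPM in Control cells and was not called (edgeR adjusted p = 0.293). Pdk1, a kinase that inhibits pyruvate dehydrogenase and a HIF target, had 36.8, 36.3 and 22.3 CPM in PTN libraries 1 to 3, against 30.2, 45.2 and 40 CPM in Control libraries 1 to 3. Here PTN 3 was the lowest library and the groups overlapped (log2 fold change -0.27 ± 0.23, edgeR adjusted p = 0.451).

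The 2 members that rose are isoforms best known from neurons. Slc2a3, the high-affinity glucose transporter GLUT3, had 90.5, 80 and 101 CPM in PTN libraries 1 to 3, against 59, 51.5 and 55 CPM in Control libraries 1 to 3. The groups were clearly separate, and the log2 fold change was 0.71 ± 0.15 (edgeR adjusted p = 0.0231). The call was lost without PTN 1, Control 1, Control 2 or Control 3 (0.0622 to 0.135) and with the length trend removed (0.061). Eno2, the enolase of neurons, was low at 9.12, 8.16 and 10.2 CPM in PTN libraries 1 to 3, against 5.58, 4.97 and 5.99 CPM in Control libraries 1 to 3. Its values did not overlap and its log2 fold change was 0.73 ± 0.19 (edgeR adjusted p = 0.0497). Eno2 was at the threshold: its adjusted p was 0.0435 without PTN 2, 0.0588 to 0.18 without any 1 other library and 0.0518 to 0.0611 by library totals, upper-quartile scaling, limma-voom and with no filter. Non-overlap with PTN above Control was seen in 4 members (10.8%) and in 15.7% of all tested genes.

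Among the other transporters, Slc2a1, the glucose transporter GLUT1 and a HIF target, had 79.3, 56 and 118 CPM in PTN libraries 1 to 3, against 98.1, 85.3 and 81.8 CPM in Control libraries 1 to 3. PTN libraries were both the lowest and the highest, and Slc2a1 was not called (log2 fold change -0.07 ± 0.25, edgeR adjusted p = 0.869). Slc16a1, the lactate transporter MCT1, averaged 208 ± 22.1 CPM in PTN cells and 190 ± 26.5 CPM in Control cells (edgeR adjusted p = 0.606). Slc16a3, the lactate exporter MCT4, split the PTN group: it had 4.11, 0.892 and 1.2 CPM in PTN libraries 1 to 3, against 4.69, 5.47 and 4.21 CPM in Control libraries 1 to 3. PTN 1 stood just under the Control range and the other PTN libraries far below it. Its counts were fractional in 3 libraries. Slc16a3 was not called (edgeR adjusted p = 0.175), but it was without PTN 1, at a log2 fold change of -2.20 (edgeR adjusted p = 0.0159).

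Levels of isoforms were also compared per length, as shares of their family's summed FPKM. Eno2 took 0.692% ± 0.0723 of enolase FPKM in PTN cells and 0.256% ± 0.0145 in Control cells (SD, n = 3 each), so Eno1 supplied nearly all enolase RNA in both groups. The share of Slc2a3 in the pair with Slc2a1 was 48.7%, 54.1% and 40.9% in PTN libraries 1 to 3, against 33.5%, 34.5% and 35.5% in Control libraries 1 to 3. Ldha made up 61.9%, 51.5% and 57.5% of lactate dehydrogenase FPKM in PTN libraries 1 to 3, against 65.1%, 64.5% and 64.8% in Control libraries 1 to 3. These 3 shares did not overlap between groups, each with p = 0.1 by a two-sided exact permutation test (0.267 adjusted over the 8 shares), the smallest p that 3 against 3 allows. The shares of Hk1, Pfkl, Pfkm, Pfkp and Slc16a3 overlapped between groups. Pfkl took 15.6% of phosphofructokinase FPKM in PTN 1 but 9.15% and 8.59% in PTN 2 and PTN 3, against 14.4% to 15.1% in Control cells.

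**Figure D3:**
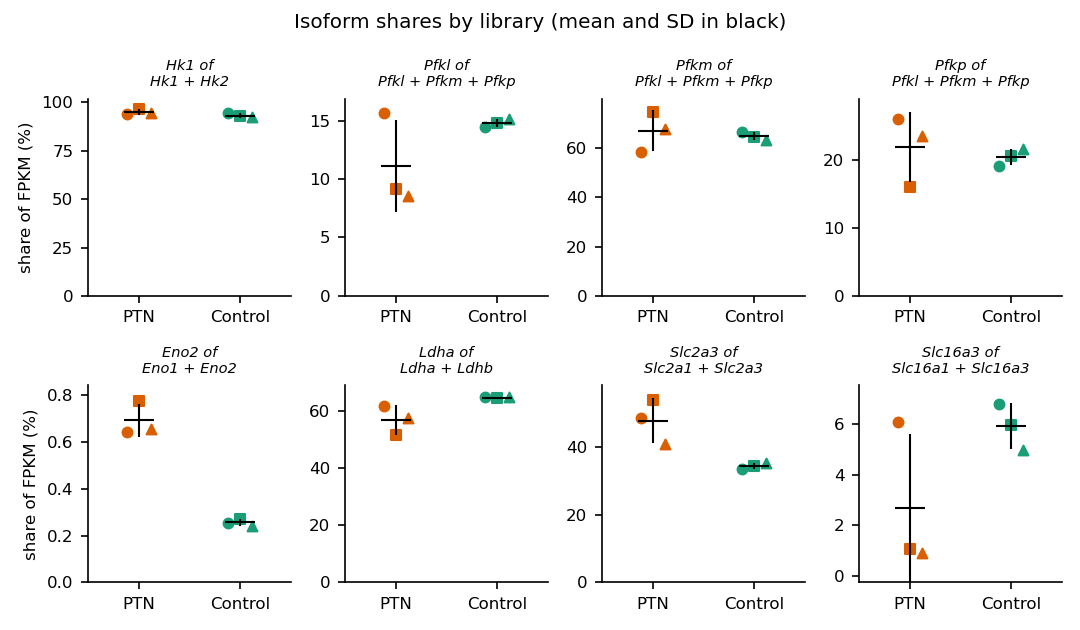
Each panel gives the share of 1 isoform in the summed FPKM of its family, in percent, for 3 PTN libraries (left) and 3 Control libraries (right), with mean and SD in black. The shares of Eno2 and Slc2a3 lie higher and that of Ldha lower in every PTN library, and the Control libraries lie closer together than the PTN libraries in all 8 panels.

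The 6 HIF subunits and oxygen sensors of the set had fold changes of both signs, and none of these 6 passed the test. Hif1a had 206, 157 and 143 CPM in PTN libraries 1 to 3, against 75.1, 127 and 122 CPM in Control libraries 1 to 3. All PTN values were above all Control values, yet the spread within groups was wide and Hif1a was not called (log2 fold change 0.65 ± 0.23, edgeR adjusted p = 0.12). Epas1 had the opposite sign, with 94.5, 111 and 138 CPM in PTN libraries 1 to 3, against 160, 173 and 187 CPM in Control libraries 1 to 3. Its groups did not overlap either, and its adjusted p was 0.0665 by edgeR (log2 fold change -0.60 ± 0.17), 0.02 without PTN 3, 0.0164 by DESeq2 and 0.0435 with the length trend removed. Per length, Hif1a RNA averaged 36 ± 6.95 FPKM and Epas1 20.7 ± 4.01 FPKM in PTN cells, against 23.1 ± 5.97 and 31.4 ± 2.42 FPKM in Control cells (SD, n = 3 each). Hif1a thus exceeded Epas1 in all 3 PTN libraries and Epas1 exceeded Hif1a in all 3 Control libraries.

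The partner gene Arnt lay slightly lower in every PTN library, at 38.8 ± 1.69 CPM in PTN cells and 44.3 ± 1.8 CPM in Control cells and was not called (edgeR adjusted p = 0.36). Vhl, which marks hydroxylated HIF for destruction, averaged 50.6 ± 10.1 CPM in PTN cells and 64.1 ± 5.16 CPM in Control cells (edgeR adjusted p = 0.239). The main prolyl hydroxylase gene Egln1 had a log2 fold change of -0.06 ± 0.14 (edgeR adjusted p = 0.784). Egln3, a prolyl hydroxylase gene that HIF itself induces, had 45.3, 32.5 and 49.7 CPM in PTN libraries 1 to 3, against 28.5, 28.8 and 29.3 CPM in Control libraries 1 to 3. Every PTN value was higher than the nearly identical Control values, and Egln3 was not called (log2 fold change 0.56 ± 0.18, edgeR adjusted p = 0.0932; 0.0264 without PTN 2 and 0.0451 by DESeq2).

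Of the 10 hypoxia-responsive genes, 1 fell, 8 were not called and 1 was not tested. Car9 had 28, 4 and 10 counts (1.09, 0.178 and 0.52 CPM) in PTN libraries 1 to 3, against 84, 53 and 50 counts (3.55, 2.03 and 2.34 CPM) in Control libraries 1 to 3. The groups were apart but the counts were few, so its log2 fold change of -2.11 ± 0.54 is imprecise (edgeR adjusted p = 0.0493). The call was lost with DESeq2 size factors (0.0524), with the length trend removed (0.0661) and without any 1 library except PTN 1 (0.052 to 0.17).

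Vegfa, the vessel growth factor, had 37.4, 21.9 and 33.5 CPM in PTN libraries 1 to 3, against 32.7, 45.2 and 44.3 CPM in Control libraries 1 to 3. The ranges overlapped through PTN 1 and Control 1 (log2 fold change -0.40 ± 0.22, edgeR adjusted p = 0.278). The mitophagy receptor genes Bnip3 and Bnip3l had opposite signs, at 29.9 ± 5.01 and 101 ± 26.1 CPM in PTN cells, against 39.9 ± 5.61 and 73.5 ± 14.3 CPM in Control cells, and neither was called (edgeR adjusted p = 0.176 and 0.224). Bhlhe40, a repressor of the clock and hypoxia responses, was level, with 110, 102 and 124 CPM in PTN libraries 1 to 3, against 106, 105 and 118 CPM in Control libraries 1 to 3 (log2 fold change 0.04 ± 0.14, edgeR adjusted p = 0.883).

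P4ha1 and P4ha2, which hydroxylate collagen, had log2 fold changes of 0.12 ± 0.13 and -0.29 ± 0.30, and Mxi1, a MYC antagonist, one of -0.21 ± 0.29, none of them called by edgeR (adjusted p = 0.578, 0.541 and 0.654; 0.0479 for Mxi1 without PTN 2). For Ndrg1, a stress-responsive gene, and Mxi1, PTN 2 stood apart from the other PTN libraries. Ndrg1 had 19.8 CPM in PTN 2 against 8.05 to 11.8 CPM in the Control libraries, and Mxi1 had 68.4 CPM in PTN 2 against 46.6 to 56.3 CPM in the Control libraries. Ankrd37 was too low to test, with 17, 1 and 2 counts in PTN libraries 1 to 3, against 9, 13 and 6 counts in Control libraries 1 to 3.

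**Figure D4:**
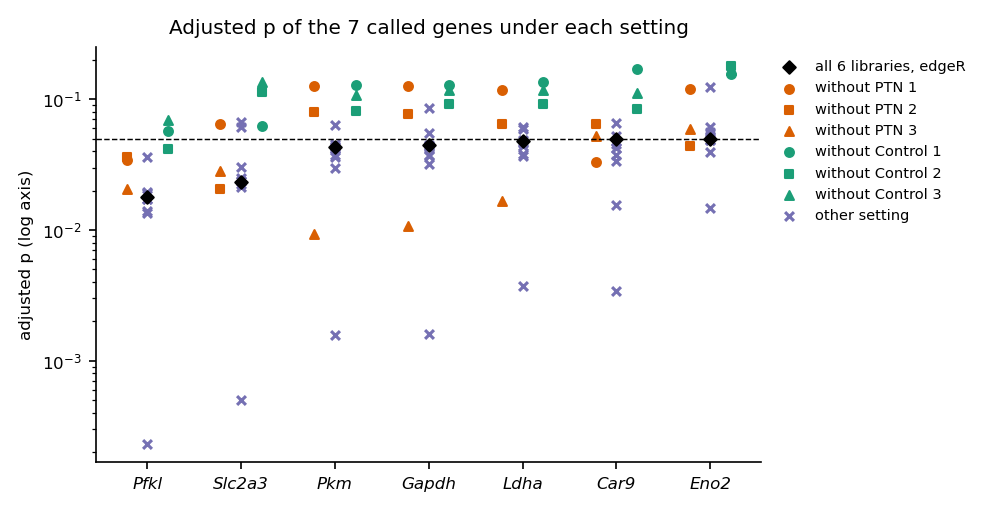
The vertical axis gives, on a log scale, the adjusted p of the 7 called genes with all 6 libraries (black diamonds), without each library in turn (orange for PTN, green for Control) and under the other settings (crosses). The dashed line marks 0.05. Pfkl lies below the line in 13 of 15 alternatives, and Gapdh, Pkm and Ldha lie well below it when PTN 3 is left out but above it without any 1 other library.

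Neighbouring pathways were examined with lists of further genes. Their counts stand beside those of all tested genes, of which 3.06% fell and 4.93% rose. Of 20 tested further glycolytic and gluconeogenic isoforms, 2 fell (10%) and 0 rose, with a median log2 fold change of -0.22. Aldoc, the aldolase of astrocytes, had 180, 456 and 271 CPM in PTN libraries 1 to 3, against 1357, 1231 and 1204 CPM in Control libraries 1 to 3, and was called in all 15 other settings. In Aldoc it was PTN 2 that lay nearest to Control, unlike in the main enzymes. Pck2, the mitochondrial enzyme that makes phosphoenolpyruvate, was 1.77-fold lower (edgeR adjusted p = 0.0441; 0.0134 without PTN 3 and 0.0592 to 0.137 without any 1 other library, and 0.051 with the length trend removed).

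In the pentose phosphate pathway, which makes NADPH and ribose from glucose 6-phosphate, 2 of 8 tested genes fell (25%) and 0 rose (median log2 fold change -0.42). G6pdx, its first enzyme, averaged 153 ± 21.7 CPM in PTN cells and 242 ± 10.6 CPM in Control cells (edgeR adjusted p = 0.0341). Tkt, transketolase, averaged 530 ± 81.6 CPM in PTN cells and 864 ± 107 CPM in Control cells (edgeR adjusted p = 0.0426). Both calls were kept without PTN 3 (0.0196 and 0.0207) and lost without any 1 other library (0.056 to 0.112 for G6pdx and 0.0736 to 0.131 for Tkt).

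Of 16 tested genes of glycogen metabolism 1 fell (6.25%) and 0 rose. The gene that fell was Ppp1r3c, which targets a phosphatase to glycogen (1.52-fold, edgeR adjusted p = 0.0393). Its call was lost without PTN 1, Control 1, Control 2 or Control 3 (0.1 to 0.135). Of 14 genes for pyruvate entry into mitochondria 1 rose (7.14%), Pdp1, a phosphatase that activates pyruvate dehydrogenase (2.25-fold, edgeR adjusted p = 0.0441). Among the refits that leave out 1 library, its call was kept only without PTN 3 (0.0162, against 0.08 to 0.173). The Pdp1 call was also lost with the length trend removed (0.0513). None of the 17 citric acid cycle genes was called by edgeR. In this list 16 log2 fold changes were negative (median -0.23) and 3 genes, all lower, had an unadjusted edgeR p under 0.05. Of all 13161 tested genes, 6246 had a negative fold change. Over the same genes 3549 had an unadjusted p under 0.05, 1611 of them lower, so 3 of 17 was no excess. By DESeq2 the number of citric acid cycle genes called was 0 as well, and without PTN 3 it was 3. Sdhd, a subunit of succinate dehydrogenase, had the smallest p in that list (log2 fold change -0.45 ± 0.17, edgeR adjusted p = 0.143).

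Of 17 tested HIF partners and inhibitors, 2 fell (11.8%) and 1 rose (5.88%). Hif3a, which encodes a HIF alpha subunit with isoforms that restrain HIF signalling, had 4.11, 4.06 and 3.07 CPM in PTN libraries 1 to 3, against 20.8, 19.7 and 18.2 CPM in Control libraries 1 to 3. The groups were far apart, at a log2 fold change of -2.38 ± 0.19 (edgeR adjusted p = 0.00095). Limd1, a scaffold that joins prolyl hydroxylase and VHL, was 1.85-fold lower (edgeR adjusted p = 0.00768). Both were called in all 15 other settings. Arnt2, the beta subunit abundant in neural tissue, was 1.5-fold higher (edgeR adjusted p = 0.0385), a call kept without PTN 3 (0.0454), lost without any 1 other library (0.0529 to 0.173) and lost with the length trend removed (0.217).

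Among 30 tested further hypoxia-responsive genes 3 rose (10%) and 2 fell (6.67%), against 4.93% and 3.06% of all tested genes. The median log2 fold change of the list was -0.015. The matrix-crosslinking enzyme gene Loxl2 had 28.8, 30.4 and 20.4 CPM in PTN libraries 1 to 3, against 7.4, 6.57 and 6.6 CPM in Control libraries 1 to 3 (edgeR adjusted p = 0.00187, with fractional counts in all libraries). Vldlr, a lipoprotein and reelin receptor gene, was 2.27-fold higher (edgeR adjusted p = 0.00992, 0.0506 without Control 3). Hilpda, a lipid droplet gene induced by hypoxia, was 2.13-fold lower (edgeR adjusted p = 0.00665), and Ddit4, an inhibitor of mTORC1 induced by hypoxia and other stresses, 1.91-fold lower (edgeR adjusted p = 0.0102). Calls in this list went in both directions, as they did over all tested genes.

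**Figure D5:**
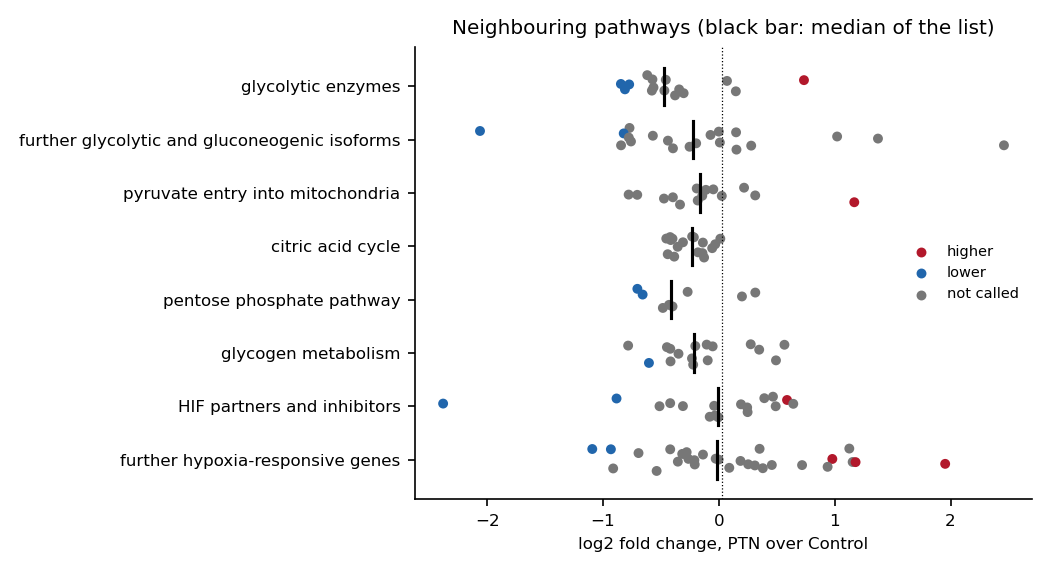
Each point is the log2 fold change of 1 tested gene, PTN over Control, in the glycolytic enzymes and in 7 lists of neighbouring pathways, with a black bar for the median of each list and a dotted line for the median of all tested genes. The medians run from -0.47 in the glycolytic enzymes and -0.42 in the pentose phosphate pathway to -0.0041 in the HIF partners and inhibitors.

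Markers of the cell types a culture of this kind could hold were read beside these lists. Of all tested genes 3.06% fell and 4.93% rose. Of the 8 astrocyte markers 2 fell (25%, Gfap and Gjb6), 0 rose, and 4 had a positive and 4 a negative fold change. S100b and Slc1a3 lay above Control in every PTN library though not called. Aldh1l1 lay below Control in every PTN library, also not called (1.28-fold, edgeR adjusted p = 0.229). Slc1a2 was 1.77-fold lower with overlap and not called (edgeR adjusted p = 0.133). The 10 neural stem and progenitor markers summed to 7796 to 9058 CPM in PTN libraries and 5952 to 6775 CPM in Control libraries. Vim, which was called higher, carried that gap, since the other 9 summed to 2722 to 4082 CPM in PTN libraries and 2516 to 3395 CPM in Control libraries, and Msi1 was lower in every PTN library without being called (1.49-fold, edgeR adjusted p = 0.0867).

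The 8 neuron markers, of which Elavl3 was called higher (12.5%), summed to 341 to 545 CPM in PTN libraries and 282 to 414 CPM in Control libraries. Map2 made up most of these sums. The other 7 summed to 60.3 to 75.9 CPM in PTN libraries and 67.7 to 70.4 CPM in Control libraries, so the Control range lay within that of PTN. Of these 8 markers, 5 had a positive and 3 a negative fold change. Tubb3 lay below Control in every PTN library without being called (1.68-fold, edgeR adjusted p = 0.123). Rbfox3 and Snap25, which mark mature neurons, were below 2 CPM in every library and lay above Control in every PTN library. For Snap25, PTN 3 and Control 3 nearly met, at 0.676 and 0.655 CPM. The fitted differences of Rbfox3 and Snap25 were 2.35-fold and 2.55-fold and were not called (edgeR adjusted p = 0.123 and 0.142). Of 7 tested oligodendrocyte lineage markers 2 fell (28.6%), Pdgfra and Cspg4. The list summed to 1133 to 1497 CPM in PTN libraries and 1320 to 1511 CPM in Control libraries.

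Of 5 tested fibroblast and meninges markers 2 fell (40%), Pdgfra, which is also in the oligodendrocyte list, and Col3a1 (3.44-fold, edgeR adjusted p = 0.0391). That list summed to 17.5 to 39.4 CPM in PTN libraries and 90.6 to 113 CPM in Control libraries, without overlap. Pdgfra made up most of these sums. The other 5 markers summed to 3.07 to 6.24 CPM in PTN libraries and 6.92 to 10.9 CPM in Control libraries, also without overlap. Of 5 tested endothelial and mural markers 1 fell (20%), Pdgfrb (5.62-fold, edgeR adjusted p = 0.00187), while fold changes were positive in 3 and negative in 2. Kdr lay above Control in every PTN library without being called (2.26-fold, edgeR adjusted p = 0.069). The list summed to 10.5 to 14.3 CPM in PTN libraries and 13.9 to 16.4 CPM in Control libraries, which overlap. Without Rgs5, the marker of highest mean level, the other 7 summed to 6.48 to 9.10 CPM in PTN libraries and 9.13 to 11.3 CPM in Control libraries. These sums did not overlap, but PTN 3 and Control 2 nearly met. Pdgfrb alone averaged 1.08 CPM in PTN cells and 6.06 CPM in Control cells. Ependyma and choroid plexus markers summed to 66.9 to 121 CPM in PTN libraries and 78.2 to 98.6 CPM in Control libraries, with none called. Foxj1 made up most of these sums. The other 5 markers summed to 10.4 to 32.6 CPM in PTN libraries and 6.69 to 8.15 CPM in Control libraries, without overlap. Of the 4 tested, 3 had a positive and 1 a negative fold change. Rarres2 lay above Control in every PTN library without being called (2.07-fold, edgeR adjusted p = 0.0659). Microglia and blood cell markers summed to 2.76 to 3.16 CPM in PTN libraries and 2.07 to 4.01 CPM in Control libraries, and 4 of the 8 were at 0 in at least 1 library. Red blood cell markers summed to 0.988 to 2.9 CPM in PTN libraries and 0.169 to 1.26 CPM in Control libraries, and all 6 were at 0 in at least 1 library. The part of these markers in the glycolytic and hypoxia-responsive genes was not tested.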

How the data were processed

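The authors deposited 1 gene table that holds both units for all 6 libraries. The deposited expected counts are estimated counts per gene, not scaled between libraries. The FPKM values, so named per the file headers, are the authors' values scaled to gene length and depth. No aligner, counter, strand setting or genome build was found for this table: not given in the sources used here. Per the labels' protocols, libraries were made from 1.3 ug of total RNA with a SMARTER mRNA kit. Column names such as P1 and C1 were matched to the sample titles.

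Expected counts were rounded, filtered with filterByExpr (13161 of 22322 genes kept), scaled by TMM and tested with edgeR's quasi-likelihood test (edgeR 4.0.16, R 4.3.3), PTN over Control, with Benjamini-Hochberg adjustment over all tested genes and calls under 0.05. The procedure was tested on simulated data. The SE is the size of the log2 fold change over the square root of F. Isoform shares used FPKM and exact permutation tests (SciPy 1.17.1). The biological coefficient of variation was 0.208.

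The members and lists were chosen with earlier results of these data known. Values per library are given for called members and 13 fixed ones, and from each further list up to 4 called genes of smallest p or, with none called, the gene of smallest p. Aldoa stood for 2 genes, and the one of higher mean was used. Alternatives were other scalings, filters and tools (DESeq2 1.42.0, limma-voom from limma 3.58.1), a replicate block, removal of a length trend and leaving out each library. The closest 2 libraries differed by a chi-square of 11.9 per degree of freedom, above sampling noise. Promoter sequences are from RefSeq (GRCm38.p6).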

Additional observations from a re-analysis of the deposited data

How the results depend on the processing

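Over all genes 1052 were called, against 1908 by DESeq2, 1913 at an adjusted p under 0.1 and 331 to 2177 without 1 library each. The 5 members called lower became 8 by DESeq2, 8 at an adjusted p under 0.1, 3 with the length trend removed, 2 with the replicate block and 0 to 11 without 1 library each, the 11 being without PTN 3. The 2 called higher became 1 with upper-quartile scaling, library totals, no filter, limma-voom or the length trend removed, 0 with the replicate block, 3 by DESeq2 or at an adjusted p under 0.1, and 0 to 3 without 1 library each, the 3 being without PTN 2. Same-numbered libraries had correlations of deviations of -0.51, 0.36 and -0.0049, so the numbers did not pair the libraries and the block is given for completeness. Directions turned in members near 0: with the length trend removed, log2 fold changes were -0.018 for Slc16a1, -0.039 for Hk1, -0.0066 for Pfkfb3 and -0.0080 for Bhlhe40, and that of Bhlhe40 was -0.010 with upper-quartile scaling. Without 1 library each, they ranged over -0.38 to 0.15 for Slc2a1, -0.0057 to 0.21 for Slc16a1, -0.11 to 0.17 for Hk1, -0.17 to 0.0056 for Egln1, -0.68 to 0.0034 for Mxi1 and -0.041 to 0.097 for Bhlhe40. The difference in share ranged over -1.65 to 6.57 percentage points for Pfkm and -0.644 to 4.33 for Pfkp. No called member changed direction in any of these settings. The cause of the changes was not tested. Depth limits Car9, Ankrd37, P4ha2 and Slc16a3 most, since they rest on few counts.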
